A study of Sus scrofa with 15 samples.

Results

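Pig embryos made by somatic cell nuclear transfer (SCNT) were compared at the 8-cell stage (SCNT8c) with the primary porcine fetal fibroblasts (PFF) whose nuclei had been transferred. The comparison took every library of these groups in one table of normalized read counts, 3 SCNT8c against 3 PFF libraries out of 15 libraries in 5 groups. PFF were cultured for 2 to 5 passages. Each SCNT8c library came from a pool of 30 embryos, made by fusing a PFF with an oocyte from which the chromosomes had been removed. Neither group received KDM4A mRNA, GSK126 or TDG, the treatments of the other embryos. RNA of PFF was extracted with TRIzol and RNA of embryos with a PicoPure kit, after which cDNA of both was amplified with a SMARTer kit. Cell type and extraction therefore cannot be told apart. The labels name no separate cultures, so p-values measure the spread between these libraries, which may be technical. The question was which RNAs of the fibroblast are still found, and which RNAs of the embryo are present, in SCNT8c.

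A fibroblast makes and remodels connective tissue, and its RNA is rich in collagens, matrix enzymes, contractile filaments and adhesion receptors. An egg carries a store of maternal RNA that drives the first divisions, is then cleared, and is followed by RNA made from the embryo's own genome. In a cloned embryo that genome comes from the donor cell. RNA found in both groups may come from the donor cell, the egg or the embryo's genome, and these sources were not separated. In such bulk samples, fewer cells of a type and less RNA per cell cannot be told apart.

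Recovered reads ranged from 22224949 to 22868038 in PFF and from 18083559 to 19549670 in SCNT8c. The log2 values of the PFF libraries correlated with one another at Pearson r = 0.986, over 18448 features that are not independent. SCNT8c replicates 1 and 2 correlated at 0.892, while replicate 3 stood apart with 0.83 and 0.765. SCNT8c replicate 2 was nearest to PFF (0.38 to 0.381), replicate 1 lay between (0.275 to 0.277) and replicate 3 was farthest (0.164 to 0.166). The title of replicate 3 numbers it 3 and its description 04, so its identity is less certain than that of the others. Calls of named genes that changed without it are given beside the gene. Of the oocyte genes tested, 11 of 12 were highest in replicate 3. Assembled transcripts without a gene name took 1.88% to 1.96% of the values in PFF and 6.18% to 11% in SCNT8c. They took 10.9% to 12.3% in untreated 4-cell SCNT embryos (SCNT4c), against 7.995%, 6.184% and 11.04% in SCNT8c replicates 1, 2 and 3. The 12 oocyte genes tested took 2.26% to 2.43% in SCNT4c, against 0.739%, 0.497% and 1.63%. By both shares replicate 3 was nearest to SCNT4c. By features above 0 it was farthest (21167, against 23064 and 22623 in replicates 1 and 2 and 24010 to 26003 in SCNT4c). Its stage was not tested.

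The labels were checked against marker genes. The 115 tested genes of 6 fibroblast lists took 25.5% to 26.9% of all normalized counts in PFF and 0.0802% to 0.115% in SCNT8c. The 12 tested oocyte genes took 0.497% to 1.63% in SCNT8c, and their sum in PFF was at most 32.2 normalized counts. Genes of other cell types are given by their summed values, in which a 0 is what the table lists and does not show that a gene was silent. Over 17 cumulus and granulosa genes the sum was 215 to 337 normalized counts (841 to 989.6 in PFF), and 7 or 8 of the 17 were above 0 in each SCNT8c library. Of the 9 tested, 1 was higher, 5 lower and 3 not called, against 33.7% higher and 36.8% lower of all features. STAR, the higher one, had 8.55, 10.2 and 13.1 in PFF and 135, 25.8 and 28.5 in SCNT8c, and AREG, not called, had 74.5, 71.3 and 67.9 in PFF and 105, 46.5 and 52.8 in SCNT8c, whereas PTX3, INHA, FOXL2 and AMH were listed at 0 in every SCNT8c library. Over 9 blood and immune genes the sum was 389 to 445 (420 to 450 in PFF), and 5 of the 9 were above 0 in each SCNT8c library. Members went in opposite directions within these sums. CD14 was lower, with 356, 374 and 334 in PFF and 117, 18.3 and 101 in SCNT8c, and LAPTM5 was higher, with 0 in each library in PFF and 20.5, 5.82 and 35.9 in SCNT8c. CD68 had 89.2, 72.6 and 83.4 in PFF and 299, 331 and 100.4 in SCNT8c, and CD3E had 0, 0 and 2.38 in PFF and 0, 50.7 and 129 in SCNT8c, neither of them called. SPI1 and HBB were at 0 in both groups. With edgeR 3 of the 4 tested were higher and none lower, while 7330 of all features were higher and 5178 lower. Over 9 skeletal muscle genes the sum was 164 to 358 (2428 to 3960 in PFF), nearly all of it DES and TNNT1, with MYOD1 at 0 in both groups. Over 10 endothelial genes it was 136 to 586 (40.5 to 135 in PFF), most of which was TEK (144, 69.00 and 556 in SCNT8c and 0 in PFF), with KDR and ESAM at 0 in SCNT8c. The part of such cells in the results was not tested.

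A feature was called changed when its Benjamini-Hochberg adjusted p from limma was under 0.05 and its fold change above 2. Fold changes are on the scale of log2(normalized count + 1) and are SCNT8c minus PFF, with their SE after the ± sign. This scale understates the change of low values. Of 18448 features tested, 13013 were called (70.5%), 6220 higher in SCNT8c (33.7%) and 6793 lower (36.8%), and 77.3% had libraries that did not overlap between the groups. The median log2 fold change of all features was -0.15. Other scalings raised the fold changes by a median of 0.63 for the same total in each library, 0.80 for edgeR, 0.83 for DESeq2 and 0.03 for quantile normalization. The share of calls that were higher was 47.8% here, 57.3% with the same total, 49.9% with quantile normalization, 58.6% with edgeR and 58.5% with DESeq2. Because 70.5% of features were called, a call says little by itself, and the counts of each gene list are to be read against 33.7% higher and 36.8% lower. A gene at or near 0 in one group passed the filter on the mean only through the other group, so the direction of such a gene was set by the filter, and counts and medians over tested members are descriptions.

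Known genes and assembled transcripts differed in their shares. Among 13163 known genes, 71.1% were called, 25.1% higher and 45.9% lower in SCNT8c, whereas among assembled transcripts 55.1% were higher and 14.1% lower. In the plot of both group means, the fibroblast genes fill the lower right and the oocyte genes line the left edge.

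**Figure D1:**
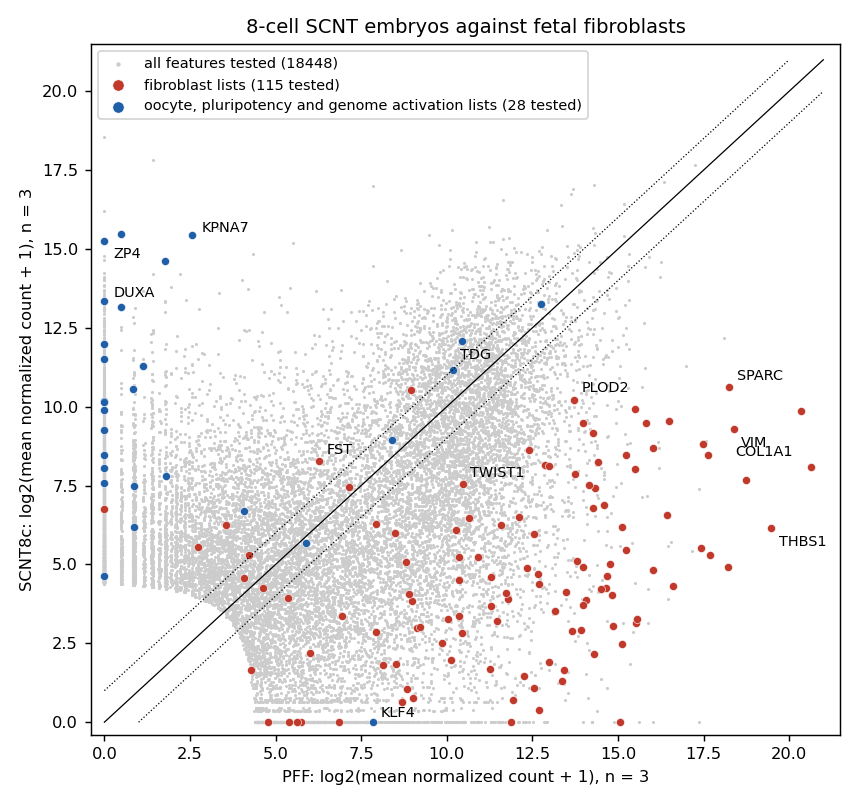
Mean of 3 PFF libraries (x axis) against mean of 3 SCNT8c libraries (y axis) for 18448 features, each as log2(mean normalized count + 1), with the diagonal and dotted lines at a 2-fold difference. Of the 115 fibroblast genes in red, 105 were called lower in SCNT8c, against 36.8% of all features. Of the 28 tested oocyte, pluripotency and genome activation genes in blue, 23 were called higher, against 33.7% of all features. Of the 57 entries of the blue lists only 6 reached 50 in PFF. Most blue genes thus passed the filter only through SCNT8c, which set their direction.

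The features found in one group only mark both ends of the switch. A feature counted as present when its mean was at least 100 and each library at least 10, and as missing when no library of the other group was above 5. By this rule 607 features were present in PFF only, of which 567 were known genes. In SCNT8c only, 1358 were present, of which 596 were known genes and 762 assembled transcripts. Without SCNT8c replicate 3 the sets held 730 and 1112 features. They describe the values and carry no test.

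Promoters of the sets differed in base composition and in short motifs. Of the set present in PFF only, BGN (a matrix proteoglycan) is shown, beside COL1A1 and THBS1, matrix genes that fell deeply but kept too many counts in SCNT8c to belong to it. Of the set present in SCNT8c only, 3 genes are shown (ZP4, an egg coat protein, and DUXA and LEUTX, homeobox factors of genome activation). Each run is the 250 bases before the annotated gene start in RefSeq's Sscrofa11.1, 5′ to 3′ on the strand of the gene. Capitals mark, on either strand, TATAAA (the TATA box), the box named CCAAT, the Sp1 motif GGGCGG, the AP-1 motif TGACTCA, the homeobox motif TAATCC, the E-box CACCTG and the CArG box.
COL1A1, chr12:26397181-26397430, minus strand: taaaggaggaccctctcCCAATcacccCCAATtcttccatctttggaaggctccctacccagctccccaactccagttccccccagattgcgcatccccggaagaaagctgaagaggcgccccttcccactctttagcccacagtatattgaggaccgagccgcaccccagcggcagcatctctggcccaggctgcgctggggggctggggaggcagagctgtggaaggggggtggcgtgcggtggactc
THBS1, chr1:131746099-131746348, minus strand: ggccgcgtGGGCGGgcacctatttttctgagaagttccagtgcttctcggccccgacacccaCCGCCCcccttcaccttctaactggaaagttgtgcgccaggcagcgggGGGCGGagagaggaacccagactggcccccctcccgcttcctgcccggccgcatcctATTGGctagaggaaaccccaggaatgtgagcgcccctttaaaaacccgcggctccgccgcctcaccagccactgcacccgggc
BGN, chrX:124281798-124282047, plus strand: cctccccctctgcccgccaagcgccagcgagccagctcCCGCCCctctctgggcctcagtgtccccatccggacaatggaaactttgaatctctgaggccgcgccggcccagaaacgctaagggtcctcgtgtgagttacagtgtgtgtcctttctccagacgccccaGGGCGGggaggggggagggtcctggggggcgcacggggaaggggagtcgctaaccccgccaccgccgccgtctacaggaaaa
ZP4, chr14:53576888-53577137, plus strand: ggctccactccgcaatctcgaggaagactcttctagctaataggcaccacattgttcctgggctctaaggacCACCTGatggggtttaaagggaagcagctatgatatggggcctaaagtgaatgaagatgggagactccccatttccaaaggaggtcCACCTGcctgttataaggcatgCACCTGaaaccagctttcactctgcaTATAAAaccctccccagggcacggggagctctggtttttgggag
DUXA, chr6:61547892-61548141, minus strand: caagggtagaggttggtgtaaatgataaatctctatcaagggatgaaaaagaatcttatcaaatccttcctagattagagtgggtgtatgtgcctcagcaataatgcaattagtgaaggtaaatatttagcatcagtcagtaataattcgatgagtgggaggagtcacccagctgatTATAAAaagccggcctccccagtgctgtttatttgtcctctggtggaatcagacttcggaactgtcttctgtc
LEUTX, chr6:48240074-48240323, plus strand: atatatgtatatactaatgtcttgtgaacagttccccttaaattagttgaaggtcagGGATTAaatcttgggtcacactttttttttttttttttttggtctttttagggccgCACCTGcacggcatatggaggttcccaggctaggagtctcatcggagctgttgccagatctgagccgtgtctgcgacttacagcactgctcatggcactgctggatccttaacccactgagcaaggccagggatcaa

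The windows of COL1A1, THBS1 and BGN were 62.8%, 66% and 67.2% G or C, and those of ZP4, DUXA and LEUTX 51.6%, 41.2% and 45.6%. ZP4 held a TATA box and 3 copies of CACCTG, and DUXA a TATA box. Over all sets, the median share of G and C was 66.4% in 547 promoters of genes present in PFF only, 52.4% in 319 of genes present in SCNT8c only and 57.2% in all 20622 promoters of protein-coding genes. TATAAA occurred in 4.94% of the first, 17.2% of the second and 10.4% of all. GGGCGG occurred in 64%, 33.9% and 44.5%, and CCAAT in 22.7%, 30.7% and 32%. TAATCC (4.2%, 6.58% and 5.47%), TGACTCA (3.66%, 3.45% and 3.04%), CACCTG (21.2%, 22.6% and 19.4%) and the CArG box (1.1%, 1.88% and 1.27%) lay nearer the share of all promoters. Motif shares were not matched for base composition, which differed between the sets. The windows, taken from protein-coding genes, cover 319 of the 596 known genes present in SCNT8c only and 547 of the 567 in PFF only. A match describes the letters of the window and not a bound site, and annotated starts may be imprecise.

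Structural matrix genes had the deepest median fall of the 6 fibroblast lists. Of 19 tested members, 18 were lower and 1 higher in SCNT8c, against 36.8% lower and 33.7% higher of all features. The median log2 fold change was -11.29 (-0.15 over all features). COL1A1, a chain of type I collagen, had 1625371, 1722224 and 1551062 normalized counts in PFF and 293, 214 and 311 in SCNT8c (log2 fold change -12.56 ± 0.17, adjusted p = 1.1e-06). COL1A2, the other chain of this collagen, had 1339831, 1401247 and 1243816 in PFF and 964, 956 and 847 in SCNT8c (log2 fold change -10.49 ± 0.11, adjusted p = 5.7e-07). Per kilobase of exon, these were the highest levels of any listed gene in PFF (265942 and 261219 normalized counts), and what was left in SCNT8c was 0.0167% and 0.0694% of the PFF mean. COL3A1 (type III collagen) went from 176993, 182175 and 172996 to 26.1, 6.65 and 101 (log2 fold change -12.64 ± 0.88, adjusted p = 6.2e-05), with its SCNT8c libraries spread widely. THBS1 (thrombospondin, a matrix signal protein) went from 769094, 774593 and 654952 to 95.2, 40.7 and 73.96 (log2 fold change -13.41 ± 0.32, adjusted p = 5.1e-06). FN1 (fibronectin) went from 418083, 409902 and 482024 to 74.7, 215 and 323 (log2 fold change -11.29 ± 0.52, adjusted p = 1.9e-05). In each of these genes every PFF library lay far above every SCNT8c library.

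The matrix genes with most left were VCAN, DCN and SPARC. SPARC (osteonectin, which binds collagen) had 320043, 336349.9 and 282089 in PFF and 1150.1, 2014 and 1558 in SCNT8c (log2 fold change -7.67 ± 0.22, adjusted p = 6.9e-06), or 0.503% of the PFF mean. VCAN (versican, a proteoglycan) had 13888, 12574 and 14962 and 225, 164 and 306 (log2 fold change -5.93 ± 0.28, adjusted p = 2.1e-05), or 1.68%. DCN (decorin, a small proteoglycan) had 1359.7, 1099 and 1493 and 3.73, 0 and 61.3, or 1.65%. At the other end, BGN (biglycan, a small proteoglycan) had 34762, 35451 and 33203 in PFF and 0 in every SCNT8c library, at least 12216-fold lower when 3 reads per library are taken as the floor. The member that went the other way was FBLN1 (fibulin, a matrix glycoprotein), with 4.89, 15.3 and 11.9 in PFF and 48.5, 39.1 and 138 in SCNT8c (log2 fold change 2.60 ± 0.67, adjusted p = 0.0122). Its libraries did not overlap, and the call was lost without PFF replicate 1.

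All 16 tested matrix enzymes and inhibitors were lower (36.8% of all features), with a median of -9.79 (-0.15 over all features). MMP2 (a gelatinase) had 34994, 33858 and 37796 in PFF and 3.73, 9.98 and 0 in SCNT8c (log2 fold change -13.22 ± 0.84, adjusted p = 4.8e-05). MMP14, the membrane protease that activates it, had 46919.7, 47807 and 50094 and 4.67, 2.49 and 19.02 (log2 fold change -12.68 ± 0.64, adjusted p = 2.5e-05). No SCNT8c library kept 1% of either PFF mean. The lysyl hydroxylases, which modify collagen before secretion, kept more. PLOD2 had 13956, 13464 and 13072 in PFF and 999.8, 1287 and 1297 in SCNT8c (log2 fold change -3.51 ± 0.18, adjusted p = 2.6e-05), which is 8.85% of the PFF mean in libraries close to one another. PLOD1 had 232, 242 and 259.8 and 36.4, 179.6 and 12.7 (log2 fold change -2.44 ± 0.91, adjusted p = 0.0488), so replicate 2 alone came near the fibroblasts, and the fall was not called without any 1 library other than that one or with any other scaling. LOXL2, which crosslinks collagen, had 45853, 48909 and 43801 and 177, 126 and 481 (log2 fold change -7.70 ± 0.49, adjusted p = 4.6e-05).

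Contractile and cytoskeletal genes were lower in 23 of 23 tested members, against 36.8% of all features (median -8.86, against -0.15). With genes summed with the assembled transcripts of their locus, 24 were tested, of which 23 were lower and 1 higher. VIM (vimentin, the intermediate filament of mesenchymal cells) had 333907, 328059 and 360379 in PFF and 601, 913 and 369 in SCNT8c (log2 fold change -9.18 ± 0.32, adjusted p = 1e-05). ACTA2 (smooth muscle actin) had 217685, 220193 and 166439 and 129, 340.0 and 589.5 (log2 fold change -9.39 ± 0.54, adjusted p = 3.4e-05), and FLNA (filamin, an actin crosslinker) had 307361, 325417 and 288604 and 1.87, 31.6 and 54.9 (log2 fold change -14.11 ± 1.06, adjusted p = 8.2e-05). TAGLN (transgelin, an actin-binding protein) went from 104366, 107623 and 88956 to 9.34, 4.99 and 42.3 (log2 fold change -12.81 ± 0.71, adjusted p = 3e-05). Embryo libraries kept under 1% of each of these, and no libraries overlapped. More was left of CNN2 (calponin), with 567, 204 and 1378 against 16416, 15979 and 15688 in PFF (log2 fold change -4.88 ± 0.65, adjusted p = 0.00075), of S100A11 (a calcium-binding protein), with 344, 214 and 285 against 7900.2, 7406 and 7099.9 (log2 fold change -4.75 ± 0.25, adjusted p = 2.7e-05), and of LGALS1 (galectin), with 734, 642 and 331 against 19560.4, 19946 and 20158 (log2 fold change -5.21 ± 0.32, adjusted p = 4.3e-05). They stood at 4.47%, 3.76% and 2.86% of PFF. Per kilobase of exon, LGALS1 (1096 normalized counts), SPARC (853), S100A11 (566) and CNN2 (417) had the highest mean levels of all fibroblast list genes in SCNT8c.

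Of 14 tested receptors and adhesion molecules, 13 were lower, against 36.8% of all features, and 1 was not called (median -7.87, against -0.15). ITGB1 (integrin beta 1, the common partner of matrix receptors) had 95647, 97078 and 84639.6 in PFF and 737, 1228 and 273 in SCNT8c (log2 fold change -7.20 ± 0.53, adjusted p = 7.3e-05). THY1, a surface marker of fibroblasts, had 20479, 21206 and 19991 and 191, 129.7 and 186 (log2 fold change -6.94 ± 0.23, adjusted p = 9.1e-06), and PDGFRB (a receptor for platelet-derived growth factor) had 10994, 12387 and 9509.8 and 0, 0 and 6.34 (log2 fold change -12.45 ± 0.82, adjusted p = 5.2e-05). CDH11 (a mesenchymal cadherin) had 29926, 29713 and 27970.4 and 28.01, 14.96 and 3.17 (log2 fold change -11.19 ± 0.70, adjusted p = 4.3e-05). These markers separated the groups in every library. ITGAV (integrin alpha V) kept 3.46%, with 151, 449 and 239 against 8459.7, 8296 and 7461 (log2 fold change -4.99 ± 0.41, adjusted p = 0.00011). NT5E (the ecto-enzyme CD73) was at 172, 125 and 125 in PFF and 199.8, 53.2 and 275 in SCNT8c (log2 fold change 0.04 ± 0.65, adjusted p = 0.957), and its libraries overlapped.

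Among secreted signals and their targets, 16 of 22 tested members were lower, 4 higher and 2 not called, against 36.8% lower and 33.7% higher of all features (median -6.78 against -0.15, or -6.05 with genes missing from one group set to the floor). CTGF (a target of the Hippo pathway) had 6004, 6279 and 4089 in PFF and 539.6, 422 and 210.2 in SCNT8c (log2 fold change -3.88 ± 0.41, adjusted p = 0.00027), and CYR61, of the same family, had 28572, 29103 and 21310.4 and 0, 0 and 71.8 (log2 fold change -12.61 ± 1.66, adjusted p = 0.00071). FGF2 (a fibroblast growth factor) had 18837, 18148 and 17943 and 147, 293 and 109.9 (log2 fold change -6.76 ± 0.38, adjusted p = 3.2e-05). These genes fell to different depths, with 7.16%, 0.091% and 1% of PFF left. FST (follistatin, which binds activin) had 69.6, 72.6 and 87.01 in PFF and 207, 336 and 380.4 in SCNT8c (log2 fold change 1.96 ± 0.36, adjusted p = 0.00299). DKK1 (an inhibitor of Wnt signals) had 0 in PFF and 109, 87.3 and 128 in SCNT8c (log2 fold change 6.75 ± 0.43, adjusted p = 4.8e-05), and CXCL12 (a chemokine) had 3.67, 0 and 13.1 and 52.3, 73.99 and 10.6 (log2 fold change 3.15 ± 1.17, adjusted p = 0.048). These 3 rises were to low levels, and the CXCL12 libraries overlapped. The CXCL12 call was lost without PFF replicate 1 or 2 or SCNT8c replicate 1 or 2, with a pseudocount of 0.1, without the filter or the trend, and with quantile normalization or edgeR. INHBA (an activin subunit) is listed as 2 entries. The entry called higher had 517, 497 and 462 and 1257, 1389 and 1815 (log2 fold change 1.58 ± 0.25, adjusted p = 0.00147), while the other, summed with the assembled transcripts of its locus, had 9899, 10906 and 6187 and 28.01, 24.9 and 56.00 (log2 fold change -7.96 ± 0.41, adjusted p = 2.5e-05), so the direction for the gene is uncertain. HGF (13.4, 12.7 and 27.4 and 18.7, 25.8 and 69.7) and IGF1 (18.3, 56.04 and 46.5 and 29.9, 4.16 and 8.45) were not called (adjusted p = 0.23 and 0.0966), although IGF1 was without SCNT8c replicate 1.

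Transcription factors of mesenchymal cells were lower in 19 of 21 tested members, against 36.8% of all features (median -5.76 against -0.15), the smallest median fall of the 6 fibroblast lists. PRRX1 (a homeobox factor of connective tissue) had 38845, 38606 and 38266 in PFF and 15.9, 80.6 and 32.8 in SCNT8c (log2 fold change -10.07 ± 0.56, adjusted p = 3.1e-05). TWIST1 (a driver of the mesenchymal state) had 1419.5, 1447 and 1415 and 93.4, 354 and 112 (log2 fold change -3.20 ± 0.53, adjusted p = 0.00191). TCF4 (a partner of TWIST1) had 368, 322 and 389.7 and 58.8, 86.5 and 43.3 (log2 fold change -2.55 ± 0.37, adjusted p = 0.00102). PRRX1 was thus at 0.112% of PFF, but TWIST1 at 13.1% and TCF4 at 17.5%, with TWIST1 highest in replicate 2. TBX15 (1729, 1638 and 1428 and 63.5, 181 and 21.1, log2 fold change -4.64 ± 0.74, adjusted p = 0.00165) and FOXC1 (431, 427 and 473 and 9.34, 9.98 and 78.2, log2 fold change -4.42 ± 0.82, adjusted p = 0.00321), both patterning factors, kept 5.54% and 7.33%. FOXD1 (14.7, 22.9 and 33.4 and 12.1, 41.6 and 0) and TEAD1 (14.7, 26.8 and 5.96 and 3.73, 25.8 and 39.1), at low values in both groups, were not called (adjusted p = 0.343 and 0.824).

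**Figure D2:**
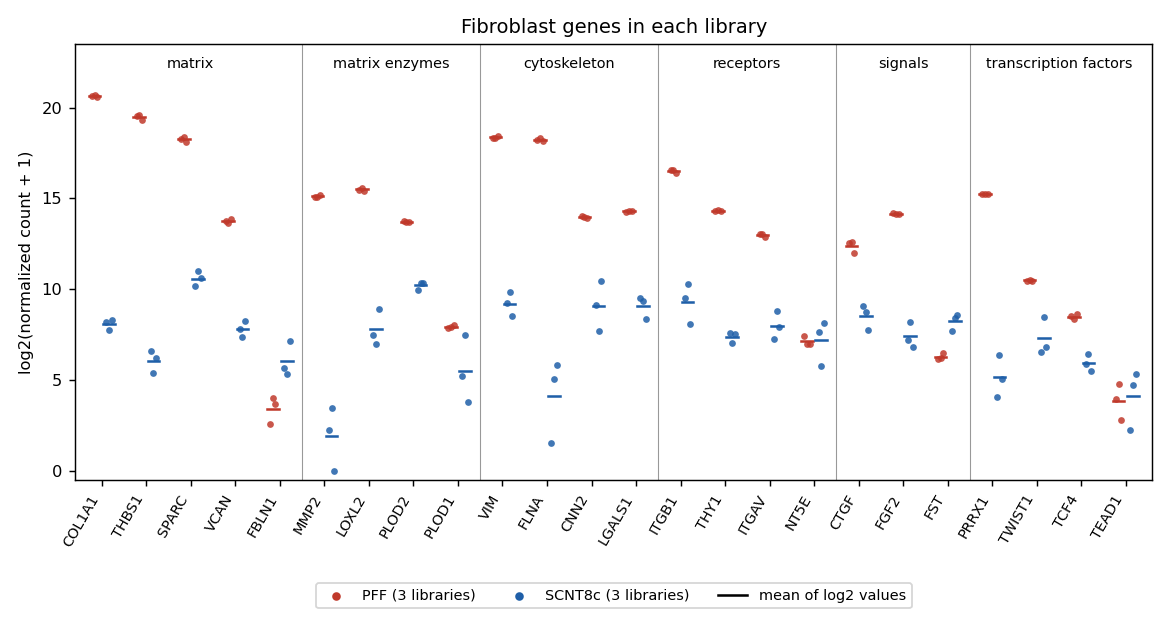
log2(normalized count + 1) of 24 fibroblast genes in each library, grouped by role, with PFF in red, SCNT8c in blue and lines at the mean of the log2 values. SCNT8c lies far below PFF for COL1A1, THBS1, VIM and PRRX1, overlaps it for NT5E and TEAD1, and is above it for FST and FBLN1.

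Over the 6 lists together, 104 genes reached 50 normalized counts on average in PFF, and 100 of them (96.2%) were lost, that is, at least 5 times lower in SCNT8c. Among all 9653 features at this PFF level, 4540 (47%) were lost, 1588 (16.5%) were reduced 2 to 5 times and 3525 (36.5%) remained, at under 2 times lower or higher. The median fibroblast gene stood at 0.387% of its PFF mean, against 23.7% for all features at this level, and 72 of the 104 (69.2%, against 13.1%) were under 1%. Those above 10% were 6 of 104, namely PLOD1, NT5E, TWIST1, TCF4, FST and 1 INHBA entry. These classes describe ratios of means and carry no test. By single SCNT8c library, 48.6%, 45.7% and 52.7% of all features were lost and 35.6%, 38.3% and 31.9% remained, so replicate 2 kept most and replicate 3 least.

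The lost share was higher among the most abundant fibroblast RNAs. Of 165 features with a PFF mean of at least 20000, 78.2% were lost and 10.9% remained. Of 3027 features between 1000 and 5000, 45.9% were lost and 36.8% remained, and of 2666 between 50 and 200, 44.7% and 38.6%. Of the 3525 that remained, 2413 were higher in SCNT8c than in PFF.

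**Figure D3:**
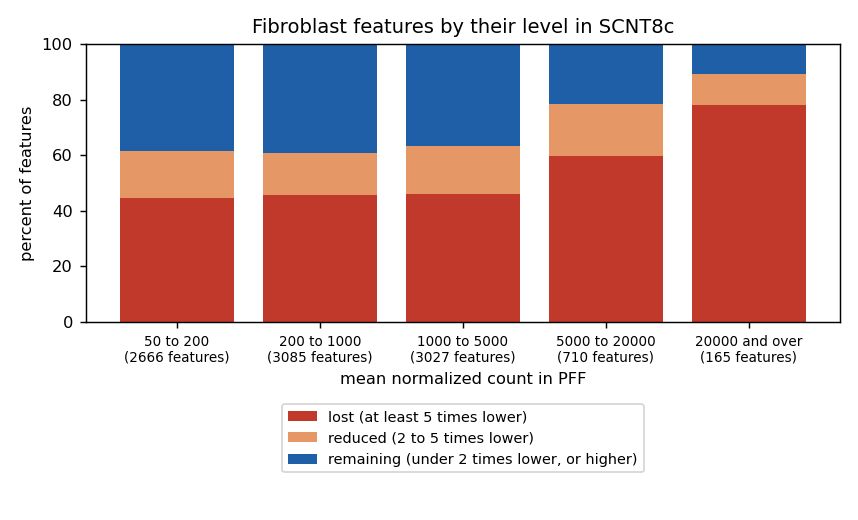
Percent of features that were lost, reduced or remained in SCNT8c (y axis, bars starting at 0) by their mean normalized count in PFF (x axis). The lost share is 44.7% to 45.9% in the 3 lower classes, 59.6% from 5000 to 20000 and 78.2% above.

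The 10 remaining genes with the highest PFF level included parts of the ribosome and the mitochondrion. RPSA, RPL15 and RPS3A are ribosomal proteins. RPSA had 39511, 38644 and 46014 in PFF and 31342, 40569.9 and 16385 in SCNT8c, and RPS3A had 26641, 24463 and 28445 and 28454, 40100.3 and 14827. RPL15 had 26388, 25598 and 28703 and 18306, 21682 and 12690.0. RPSA and RPS3A overlapped between the groups, and none of the 3 passed the fold limit (adjusted p = 0.15, 0.916 and 0.0306). Of the mitochondrial genes, ND5 (a subunit of complex I) had 155724, 157864 and 151145 and 223613, 235834 and 159048 (log2 fold change 0.39 ± 0.15, adjusted p = 0.058), and CYTB (cytochrome b of complex III) had 37686, 37198 and 36992 and 82079.6, 95162 and 85858 (log2 fold change 1.23 ± 0.09, adjusted p = 8.5e-05). Of these, CYTB was called higher, and ND5 was with 3 of the 4 other scalings. All mitochondrial genes together took 0.81% to 0.819% of the values in PFF and 1.49% to 2.3% in SCNT8c. FTL (ferritin light chain, which stores iron) had 80959, 80512 and 87166 and 161918, 126341 and 138768 (log2 fold change 0.77 ± 0.11, adjusted p = 0.00102), higher in each SCNT8c library but under the 2-fold limit here and above it with each other scaling. PPIA (cyclophilin A, a protein-folding enzyme) had 28422, 28493 and 28583 and 21315, 18624 and 18459 (log2 fold change -0.55 ± 0.11, adjusted p = 0.00462), and DDX5 (an RNA helicase) had 28421, 27617 and 25989.6 and 20298, 21455 and 17405 (log2 fold change -0.48 ± 0.13, adjusted p = 0.0139). CLIC4 (a chloride channel protein) had 40201, 40448 and 38964 and 21886, 27325 and 18713 (log2 fold change -0.83 ± 0.16, adjusted p = 0.00336). Each of these 3 was lower in every SCNT8c library, with a mean change under 2-fold. DSTN (destrin, which depolymerizes actin) had 38189, 37878 and 35934 and 22849.8, 16173 and 90892, with replicate 3 above and the others below PFF (adjusted p = 0.769).

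The genes with a symbol and the highest PFF level among those present in PFF only included genes of the matrix and cell surface. AEBP1 (a collagen-binding protein) had 67610.1, 71827 and 59249.5 in PFF and 0 in every SCNT8c library, at least 23469.6-fold lower. COL4A2 (a basement membrane collagen) had 51115, 58583 and 41157 and 0, and IGFBP2 (a carrier of insulin-like growth factor) had 31926, 33699.6 and 25438 and 0. MXRA8 (a matrix and adhesion protein) had 19529, 20364 and 17787 and 0, and CSRP1 (a LIM protein of actin filaments) had 19552, 20401 and 18004 and 0. The bounds for IGFBP2, MXRA8 and CSRP1 were at least 10757-, 6813- and 6846-fold. BGN, VASN, ISLR, SCARA3 and CSPG4 completed the 10, each with at most 3.73 normalized counts in any SCNT8c library. Of the 607 features present in PFF only, 347 were also at most 5 in every library of untreated 4-cell SCNT embryos (SCNT4c).

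Oocyte genes ranged in SCNT8c from entries at 0 in every library (6 of 23) to the high levels of ZP4, H1FOO and KPNA7. Of 23 entries 12 passed the filter, through their SCNT8c values, and were higher in SCNT8c (median 10.89, or 10 with genes missing from one group set to the floor). As none reached 50 in PFF, this direction was fixed by the filter and is no result about the list. ZP4 (zona pellucida protein of the egg coat) had 0 in every PFF library and 45081, 36542 and 34726 in SCNT8c (log2 fold change 15.23 ± 0.28, adjusted p = 2.5e-06), at least 10516-fold higher. H1FOO (the linker histone of the oocyte) had 0, 0 and 1.19 in PFF and 25684, 12972 and 98583 in SCNT8c (log2 fold change 14.59 ± 0.79, adjusted p = 2.9e-05). KPNA7 (an importin of oocytes and early embryos) had 4.89, 5.09 and 4.77 and 26537, 13366 and 93494 (log2 fold change 12.41 ± 0.70, adjusted p = 3.2e-05). ZP4 was alike in the 3 embryo libraries, but H1FOO and KPNA7 were 3 or more times higher in replicate 3. WEE2 (the kinase that holds the oocyte in meiosis) had 6.11, 0 and 1.19 and 14025, 9102 and 51665 (log2 fold change 12.87 ± 0.93, adjusted p = 7e-05), PADI6 (of the subcortical maternal complex) had 0, 0 and 1.19 and 7817, 5263 and 14234 (log2 fold change 12.65 ± 0.54, adjusted p = 1.7e-05), and DPPA3 (which protects maternal DNA methylation) had 0 and 3410.3, 1452 and 7308 (log2 fold change 11.69 ± 0.62, adjusted p = 2.8e-05). NPM2 (a histone chaperone of the egg) had 0, 0 and 3.58 and 1018, 648 and 5928 (log2 fold change 9.89 ± 1.02, adjusted p = 0.00026). All 4 were highest in replicate 3 and lowest in replicate 2. ZP2 had 0 in PFF and 626, 1219.5 and 1663 in SCNT8c (log2 fold change 10.08 ± 0.48, adjusted p = 2.1e-05), and NLRP5 had 15.9, 11.5 and 20.3 and 119, 58.2 and 129 (log2 fold change 2.56 ± 0.47, adjusted p = 0.00311). Per kilobase of exon, H1FOO (32467 normalized counts), ZP4 (23099), KPNA7 (20730.0) and DUXA (15574) were the highest of the embryo lists in SCNT8c.

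Another 11 oocyte entries were too low to test as listed. The counting can hand the reads of a gene to an assembled transcript at the same locus, and several genes used in every cell were near 0 in PFF for this or another reason, such as ENO1 (8.55, 10.2 and 22.6) and TPI1 (2.44, 1.27 and 1.19), both glycolytic enzymes. A low value is therefore not evidence that a gene was silent. Where the locus holds 1 known gene, the gene was summed with its assembled transcripts. Then GDF9, an oocyte growth factor, had 96.5, 89.2 and 106 in PFF and 4836, 3738 and 17778 in SCNT8c (log2 fold change 6.13 ± 0.59, adjusted p = 0.0002), and BMP15, its partner, had 0 and 2197, 1757 and 5388 (log2 fold change 11.43 ± 0.51, adjusted p = 1.7e-05). ZP3 and NOBOX were also called higher in this way, which makes 16 oocyte genes that passed the filter. For genes near 0 in PFF this was again through SCNT8c. GDF9 would pass on its PFF values alone, so its direction was not set by the filter. With this sum 33.3% of all features were higher and 37% lower. The strand of these transcripts was not used.

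Pluripotency genes were present in part. Of 25 entries 11 were tested, of which 8 were higher, 1 lower and 2 not called (median 6.32, or 6.19 with the floor). Over all features, 33.7% were higher and 36.8% lower. Only 3 of the 25 reached 50 in PFF, so most members could pass the filter only by being high in SCNT8c. POU5F1 (OCT4) had 0 in PFF and 162, 164 and 243 in SCNT8c (log2 fold change 7.55 ± 0.42, adjusted p = 3.1e-05), but its locus holds several genes. TFAP2C (a factor of early embryo and trophectoderm) had 0, 0 and 2.38 and 1569, 1801 and 1158 (log2 fold change 9.95 ± 0.59, adjusted p = 3.7e-05). DPPA4 (a chromatin protein of pluripotent cells) had 0 and 700.2, 828 and 308 (log2 fold change 9.14 ± 0.50, adjusted p = 3e-05). DPPA5 (an RNA-binding protein) had 0 and 940.1, 615 and 1316 (log2 fold change 9.84 ± 0.43, adjusted p = 1.7e-05), TRIM71 (a repressor of mRNAs in stem cells) had 0 and 414, 399 and 243 (log2 fold change 8.42 ± 0.42, adjusted p = 2.4e-05), and LIN28B (which blocks let-7) had 4.89, 2.55 and 0 and 229.7, 185 and 246 (log2 fold change 6.32 ± 0.71, adjusted p = 0.00036). ESRRB (an orphan nuclear receptor) had 1.22, 1.27 and 0 and 138, 37.4 and 364 (log2 fold change 6.19 ± 0.90, adjusted p = 0.00108). In all of these the SCNT8c libraries lay above PFF. KLF4 was the reverse, with 222, 220.3 and 250.3 in PFF and 0 in every SCNT8c library (log2 fold change -7.86 ± 0.39, adjusted p = 2.4e-05). KLF5 (52.5, 56.04 and 67.9 and 34.5, 88.1 and 29.6) and ETV5 (303, 379.5 and 332 and 290.3, 194 and 985) overlapped and were not called (adjusted p = 0.528 and 0.801). Other core members were low in SCNT8c as listed, with SOX2 at 5.60, 13.3 and 8.45 and the 2 NANOG entries at most 29.9. Summed with their loci, LIN28A (0 in each library and 1148, 741 and 4061, log2 fold change 10.56 ± 0.68, adjusted p = 4.5e-05), KLF17 (0 in each library and 579.7, 278 and 223, log2 fold change 8.37 ± 0.51, adjusted p = 3.8e-05) and NR5A2 (18.3, 14.01 and 22.6 and 1026, 554 and 295, log2 fold change 4.86 ± 0.53, adjusted p = 0.00031) were higher in SCNT8c.

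Of 6 tested genes linked to genome activation, 4 were higher (TFAP2C among them) and 2 not called (median 5.76). Over all features, 33.7% were higher. With edgeR or the same total 6 of 6 were higher, while 7330 and 7348 of all features were. Only 3 of 11 entries reached 50 in PFF. DUXA, LEUTX and TFAP2C were at or near 0 there and passed the filter only through SCNT8c, so their direction was set by it. DUXA, a double homeobox factor, had 0 in PFF and 10151, 5811 and 15717 in SCNT8c (log2 fold change 13.25 ± 0.44, adjusted p = 9.2e-06), at least 2863-fold higher. LEUTX, a homeobox factor of the same stage, had 0 and 3285, 2468 and 2959 (log2 fold change 11.49 ± 0.34, adjusted p = 6.9e-06). SUPT4H1 (a transcription elongation factor) was present in both, with 1417, 1382 and 1393 and 5969, 4425 and 2680.4 (log2 fold change 1.57 ± 0.32, adjusted p = 0.00454). DUXA and LEUTX were thus found in SCNT8c only, and SUPT4H1 in both groups. TDG (the glycosylase that removes oxidized methylcytosine from DNA) had 1194, 1237 and 1024 and 2340.4, 2052 and 2506 (log2 fold change 1.0 ± 0.21, adjusted p = 0.00495), on the 2-fold limit and not called, but called higher with each other scaling and without SCNT8c replicate 2 or PFF replicate 1 or 2. EIF1AX (a translation factor) had 6884, 7007 and 6873 and 10694, 11013 and 7702 (log2 fold change 0.48 ± 0.18, adjusted p = 0.0511), not called here but called higher with the same total, edgeR and DESeq2. RTFDC1, a gene of the study outside the lists, had 1377, 1294 and 1344 and 5778, 8327 and 3509 (log2 fold change 2.05 ± 0.33, adjusted p = 0.00172). ZSCAN4 (2.44, 3.82 and 3.58 and 19.6, 2.49 and 2.11) was too low to test, and PNRC1 and UBTFL1 were at most 4.77 in any library.

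**Figure D4:**
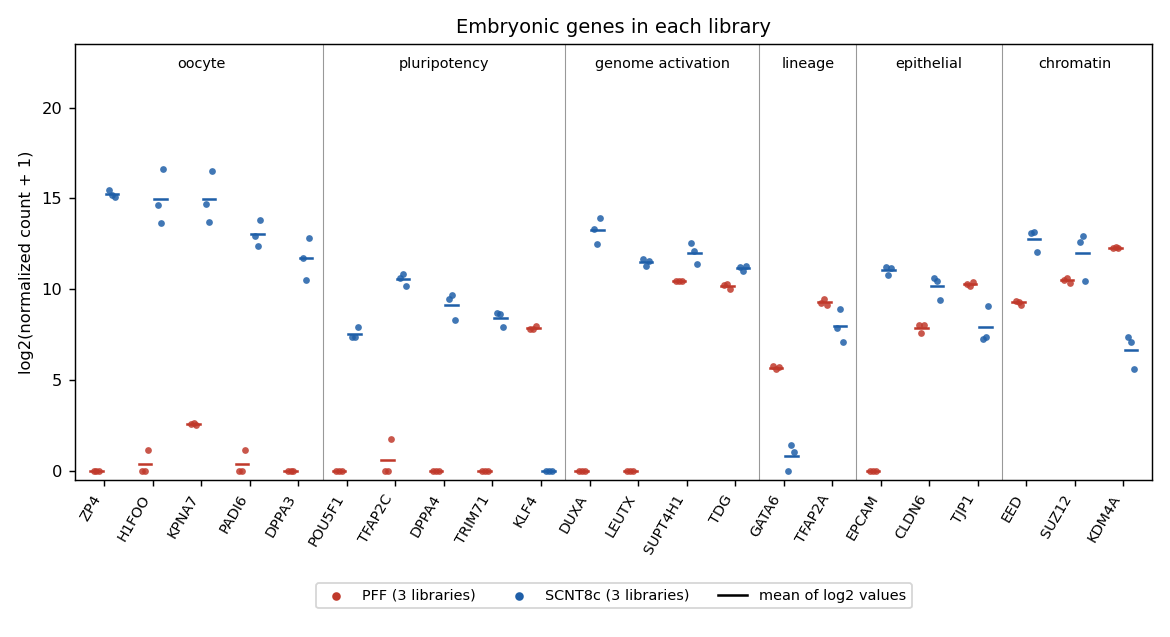
log2(normalized count + 1) of 22 genes from the embryonic and chromatin lists in each library, grouped by role, with PFF in red, SCNT8c in blue and lines at the mean of the log2 values. ZP4, POU5F1, DPPA4, TRIM71, DUXA, LEUTX and EPCAM are at 0 in every PFF library, while KLF4 is at 0 in every SCNT8c library and KDM4A is lower in SCNT8c.

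Most genes of the first lineages were too low to test. Of 15 trophectoderm and hypoblast genes only 5 could be tested, of which 2 were higher and 3 lower, too few to set against the 33.7% and 36.8% of all features. The list summed to 1416, 1184 and 3871 in SCNT8c and 882, 1033 and 872 in PFF. Of the 2 higher genes only ELF5 is reported here, and the genes named here make up only part of the SCNT8c sums. ELF5 (a factor of trophoblast) had 0 in PFF and 60.7, 10.8 and 56.00 in SCNT8c (log2 fold change 5.11 ± 0.77, adjusted p = 0.00126). GATA2 had 215, 271 and 234 and 0 in every SCNT8c library (log2 fold change -7.91 ± 0.39, adjusted p = 2.4e-05), and GATA6 had 52.5, 47.1 and 51.2 and 0, 1.66 and 1.06 (log2 fold change -4.86 ± 0.54, adjusted p = 0.00034). Both GATA factors were thus higher in every PFF library. TFAP2A had 602, 694 and 567 and 228, 487 and 137 (log2 fold change -1.32 ± 0.49, adjusted p = 0.0481), a fall that was lost without any 1 PFF library, without SCNT8c replicate 1 or 3 and with each other scaling. CDX2 (the trophectoderm factor) was at 0, 14.96 and 0 in SCNT8c, and SOX17 and EOMES were at most 2.11.

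Of 11 tested epithelial junction genes, 6 were higher, 4 lower and 1 not called (median 2.27 against -0.15), and the lower share was about that of all features (36.8%, with 33.7% higher). EPCAM (an adhesion molecule of epithelia) had 0 in PFF and 2342, 1749 and 2282 in SCNT8c (log2 fold change 11.04 ± 0.35, adjusted p = 8.3e-06). The claudins CLDN7 (2.44, 2.55 and 2.38 and 298, 298 and 226, log2 fold change 6.30 ± 0.36, adjusted p = 3.4e-05) and CLDN6 (256, 192 and 257 and 1538, 1402 and 678, log2 fold change 2.28 ± 0.39, adjusted p = 0.00222) rose, and CLDN4 (75.7, 76.4 and 82.2 and 95.2, 128 and 470.2, adjusted p = 0.132) was not called, but was called higher with the same total, edgeR and DESeq2. GRHL2 (0 in each library and 39.2, 52.4 and 191, log2 fold change 6.22 ± 0.70, adjusted p = 0.00036) and ESRP1 (408, 382 and 427 and 1666, 1028 and 4406, log2 fold change 2.27 ± 0.53, adjusted p = 0.00855), a transcription factor and a splicing factor of epithelia, were higher too. The junction scaffold TJP1 (1233, 1150.1 and 1344 and 153, 163 and 530.4, log2 fold change -2.38 ± 0.52, adjusted p = 0.00612) and the desmosome proteins PKP2 (706, 797 and 813 and 57.9, 113 and 8.45, log2 fold change -4.27 ± 0.90, adjusted p = 0.00538) and DSC2 (549.7, 678 and 641 and 1.87, 11.6 and 2.11, log2 fold change -7.01 ± 0.64, adjusted p = 0.00017) were lower. TJP1 was not called with quantile normalization or DESeq2. CDH1 (E-cadherin), summed with its locus, had 0 in each library in PFF and 258, 355 and 65.5 in SCNT8c (log2 fold change 7.52 ± 0.71, adjusted p = 0.00018).

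**Figure D5:**
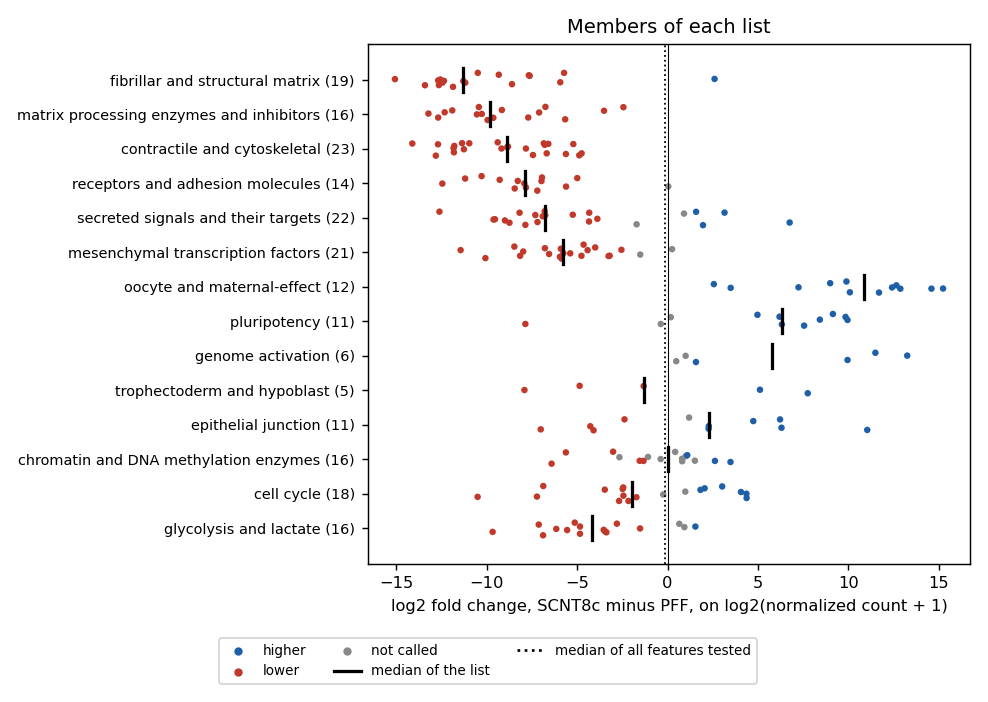
log2 fold change of each tested member (x axis, SCNT8c minus PFF) for 14 gene lists, with the number tested in brackets, black bars at list medians and a dotted line at the median of all features (-0.15). The 6 fibroblast lists have medians from -11.29 to -5.76, the oocyte list 10.89 and the chromatin list 0.02. The direction of the oocyte list was fixed by the filter.

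Of 16 tested chromatin enzymes, 3 were higher, 5 lower and 8 not called (median 0.02), against 33.7% higher and 36.8% lower of all features. The balance depended on the scaling, with 7 higher and 3 lower with edgeR (median 0.99) and with the same total (median 0.70), and without SCNT8c replicate 3 there were 5 higher and 7 lower of 17 (median -0.49). EED, a subunit of the Polycomb complex that writes H3K27me3, had 658, 628 and 566 in PFF and 8676, 8905 and 4228 in SCNT8c (log2 fold change 3.48 ± 0.33, adjusted p = 0.0002). SUZ12, another subunit, had 1454, 1536 and 1297 and 6099.9, 7833 and 1406 (log2 fold change 1.51 ± 0.64, adjusted p = 0.0721), and EZH2, the enzyme of the complex, had 418, 422 and 428 and 1035, 1037 and 375 (log2 fold change 0.80 ± 0.45, adjusted p = 0.147). Replicates 1 and 2 were above PFF for all 3 genes and replicate 3 for EED alone, and without replicate 3 or with each other scaling both SUZ12 and EZH2 were called higher. SUV39H2 (a writer of H3K9me3) had 526, 502 and 369.5 and 2192, 1561 and 6715 (log2 fold change 2.62 ± 0.56, adjusted p = 0.0056), highest in replicate 3, and KDM5A (an eraser of H3K4 methylation) had 541, 588 and 530.4 and 1398, 1648 and 714 (log2 fold change 1.09 ± 0.36, adjusted p = 0.0325). The KDM5A call was lost without any 1 PFF library, without SCNT8c replicate 1 or 2 and without the trend. The demethylases of H3K9me3 went the other way. KDM4A had 4932, 5150.5 and 4933 and 162, 134 and 47.5 (log2 fold change -5.62 ± 0.48, adjusted p = 0.00013), KDM4B had 2422, 2571 and 2485 and 14.9, 93.1 and 15.8 (log2 fold change -6.41 ± 0.72, adjusted p = 0.00036), and KDM4C had 399.5, 433 and 484 and 30.8, 61.5 and 80.3 (log2 fold change -3.01 ± 0.43, adjusted p = 0.00101). KDM4A and KDM4B kept 2.28% and 1.66% of PFF, but the fall of KDM4C was not called when it was summed with its locus (log2 fold change -0.62 ± 0.32, adjusted p = 0.125). HDAC1 (3374, 3215 and 3697 and 2759, 3534 and 1879.6) and DNMT3B (181, 166 and 180.0 and 263, 59.02 and 832) were not called (adjusted p = 0.242 and 0.691).

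Of 18 tested cell cycle genes, 6 were higher, 10 lower and 2 not called (median -1.94 against -0.15). The higher share was that of all features (33.7%), and 36.8% of all features and 45.9% of known genes were lower, so the counts say little of the list. CCNB1 (cyclin B, which drives entry into mitosis) had 707, 672 and 825 in PFF and 13388, 12417 and 20617 in SCNT8c (log2 fold change 4.36 ± 0.25, adjusted p = 3.4e-05). CDK1, its kinase, had 430.0, 364 and 498 and 11094, 12078 and 5228 (log2 fold change 4.37 ± 0.37, adjusted p = 0.00012), and CDC25C, the phosphatase that activates it, had 159, 216 and 180.0 and 3433, 2721 and 3155 (log2 fold change 4.06 ± 0.25, adjusted p = 4.1e-05). All 3 were higher in every SCNT8c library than in PFF. CCND2 (a D cyclin) had 1167, 1062 and 1104 and 4901, 5895 and 2100.4 (log2 fold change 1.82 ± 0.41, adjusted p = 0.00676), and CDKN2B (an inhibitor of CDK4 and CDK6) had 1110.4, 1135 and 1120.3 and 3802, 2673 and 9874 (log2 fold change 2.05 ± 0.48, adjusted p = 0.00837). Several genes of G1 fell. CCND1 (cyclin D1) had 11411, 11483 and 11377 and 22.4, 19.9 and 0 (log2 fold change -10.50 ± 1.21, adjusted p = 0.00041), CDK6 had 10682, 11179.7 and 9860.2 and 78.4, 302 and 13.7 (log2 fold change -7.22 ± 1.03, adjusted p = 0.00098), and CDKN1B (the inhibitor p27) had 2086, 2263 and 2044 and 7.47, 74.8 and 8.45 (log2 fold change -6.87 ± 0.86, adjusted p = 0.00057). RB1 (the retinoblastoma protein) had 2843, 2897 and 2583 and 171, 281 and 321 (log2 fold change -3.47 ± 0.31, adjusted p = 0.00014). MKI67 (473, 458 and 557 and 133, 121 and 45.4, log2 fold change -2.44 ± 0.48, adjusted p = 0.00388), a marker of dividing cells, was lower too, and PLK1 (618, 647 and 548 and 1084, 1319 and 1169.6, log2 fold change 0.98 ± 0.23, adjusted p = 0.00799) was just under the fold limit, and was called higher with each other scaling and without PFF replicate 2 or SCNT8c replicate 1. The MKI67 call was lost with quantile normalization.

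Glycolysis genes were lower in 13 of 16 tested members, 1 was higher and 2 were not called (median -4.18 against -0.15), while 36.8% of all features and 45.9% of known genes were lower. Without SCNT8c replicate 3, 12 of 17 were lower and 3 higher (median -3.05), and with the same total 12 of 17 were lower and 2 higher (median -2.85). GAPDH had 54513, 53238 and 58030.2 in PFF and 5479, 12122 and 1649 in SCNT8c (log2 fold change -3.53 ± 0.68, adjusted p = 0.00357), and ALDOA (aldolase) had 28455, 28437 and 29462 and 4382, 5225 and 920.2 (log2 fold change -3.38 ± 0.65, adjusted p = 0.00354). HK1 (hexokinase) had 7496, 7980.4 and 7171 and 66.3, 73.99 and 50.7 (log2 fold change -6.88 ± 0.25, adjusted p = 1.1e-05). GAPDH and ALDOA were lowest in replicate 3. LDHA (the lactate dehydrogenase that favours lactate) had 1036, 1026 and 1149 and 8.40, 4.16 and 8.45 (log2 fold change -7.12 ± 0.38, adjusted p = 2.8e-05), and SLC16A3 (which exports lactate) had 1106, 991 and 949.9 and 0.934, 0 and 0 (log2 fold change -9.67 ± 0.43, adjusted p = 1.8e-05). The other subunit, LDHB, is listed as 2 entries, of which 1 was at 0 in every library and the other had 7322, 6874 and 7841 and 24875, 29017 and 13497 (log2 fold change 1.54 ± 0.30, adjusted p = 0.00359), opposite to LDHA. HK2, summed with its locus, had 430.0, 560.4 and 404 and 5080.4, 3427 and 1794 (log2 fold change 2.77 ± 0.41, adjusted p = 0.00118), opposite to HK1. The glucose transporter SLC2A3 (659.7, 519.6 and 536 and 1231, 1660.1 and 346) and ALDOC (833, 834 and 970.2 and 1444, 2319 and 1386) were not called (adjusted p = 0.356 and 0.0223), SLC2A3 being called higher without SCNT8c replicate 3 and with quantile normalization, edgeR and DESeq2, and ALDOC, under 2-fold here, without replicate 1 or 3 and with each other scaling.

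Beyond the lists, the genes with the largest rises included germline genes. HENMT1, a methyltransferase of piRNAs, had 0 in PFF and 18067, 17242 and 18419.5 in SCNT8c (log2 fold change 14.13 ± 0.29, adjusted p = 2.7e-06), at least 4856-fold higher. BRDT, a bromodomain protein of the testis, had 0 and 20745, 13319.9 and 18053 (log2 fold change 14.06 ± 0.32, adjusted p = 5.1e-06), and MPZL2, an adhesion protein of epithelia, had 0 and 25353, 13938 and 10469 (log2 fold change 13.92 ± 0.42, adjusted p = 7.4e-06). OTX2, a homeobox factor, had 0 and 9082, 5528 and 34806 (log2 fold change 13.56 ± 0.70, adjusted p = 2.6e-05). HENMT1 and BRDT were alike in the 3 embryo libraries, whereas OTX2 was highest in replicate 3. FKBP6, ARL14EPL, ZP4, H1FOO, DUXA and PADI6 completed the 10 highest genes present in SCNT8c only.

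The features present in SCNT8c only were compared with SCNT4c. Of the 1358, 1248 (91.9%) also met the level set for presence in SCNT4c, and 1 had an SCNT4c mean under 10. In a fit of 9 libraries (PFF, SCNT4c and SCNT8c), 6 of them (0.442%) were called higher and 10 (0.736%) lower in SCNT8c than in SCNT4c, and the mean normalized count was below that of SCNT4c in 1055 of the 1358. In the same fit 1.25% of 19412 features were higher and 1.8% lower, but the set was chosen by its SCNT8c values and nothing is read from the difference. SCNT8c and SCNT4c fitted alone gave 0 calls (smallest adjusted p 0.198, with 3582 features at an unadjusted p under 0.05), and edgeR gave 0 (smallest adjusted p 0.0685, 4297 features). Without SCNT8c replicate 3, 73 of these features were higher and 777 lower, without replicate 1 none was either, and without replicate 2, 4 were lower. The counts thus changed most without replicate 3, whose identity is less certain. Without any 1 SCNT4c library, at most 4 were higher and 0 lower.

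Some genes that the study names lie outside the lists. USP5 (2444, 2545 and 2371 in PFF and 1044, 983 and 614 in SCNT8c, log2 fold change -1.52 ± 0.27, adjusted p = 0.0026) was called lower here but not with quantile normalization, the same total, edgeR or DESeq2. TRIM8 had 1101, 1258 and 1161 and 5.60, 18.3 and 43.3 (log2 fold change -6.04 ± 0.69, adjusted p = 0.0004), and CSTF1 had 81.8, 66.2 and 69.1 and 20.5, 27.4 and 62.3 (log2 fold change -1.11 ± 0.50, adjusted p = 0.0847), the last called lower without SCNT8c replicate 3. Many annotated genes overlap another on the opposite strand, among them TDG, SUZ12, CSTF1, RB1, FGF2, PLK1, GAPDH, COL4A2 and RTFDC1, and since the strand setting of the counting is not given in the sources used here, their values could include reads of the overlapping gene.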

How the data were processed

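The deposited values are normalized read counts per feature, a signal made by the authors by dividing counts by 1 factor per library. Per the labels and the study's methods, the authors used Trimmomatic 0.39 for trimming, STAR 2.5.3a for alignment to the Sscrofa11.1 build and assembled transcripts with StringTie 2.1.2, with counts by HTSeq. In each library 100% of values were whole multiples of 1 read (tolerance 0.01), which gave back the reads. Of 43535 entries, 241 repeats were removed, leaving 28224 known genes and 15070 assembled transcripts. Of the known genes, 99.6% were placed in the RefSeq annotation.

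Features averaging 10 or more in the 6 libraries were tested with limma 3.58.1 (R 4.3.3) on log2(value + 1), with an intensity trend and no block. Scripts were tested on simulated data. There DESeq2 called more unchanged features (124, against 5 with limma and 4 with edgeR) and recovered more of the changed ones. A two-sided exact permutation test of 3 against 3 cannot go below p = 0.1. Lists were described by counts and medians and were not tested as sets. Named genes were the 10 largest rises and falls with a symbol, a mean of at least 100 and no overlap, the 10 highest in each class, up to 4 leading members and the exceptions of each list, fibroblast genes above 10% of PFF, and genes the study names. Part of these are reported, and some genes are not reported here. The genes and lists were chosen with earlier results of these data known. CCN1 and CCN2 are listed as CYR61 and CTGF. Alternatives were a pseudocount of 0.1 or 10, other minimum means (50, or above 0), quantile normalization, the same total, edgeR 4.0.16 and DESeq2 1.42.0 on recovered reads, no trend, library weights, all 15 libraries, no fold limit or a 5-fold limit, the replicate block, each library left out, and the sum of a gene with its locus. For the classes, a minimum PFF mean of 10 or 200 and other presence limits were tried. Added after the data were seen were list counts without single libraries and each SCNT4c library left out.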

Additional observations from a re-analysis of the deposited data

Results flagged for a closer look

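The change against PFF differed between SCNT8c and SCNT4c, by the test of SCNT8c minus SCNT4c in the fit of 9 libraries, for 10 genes named in the text (1.25% of 19412 features were higher and 1.8% lower). Fibroblast genes lower in SCNT8c were COL1A2 (log2 difference -1.45, adjusted p = 0.0048), COL3A1 (-3.39, adjusted p = 0.0462), THBS1 (-1.89, adjusted p = 0.0438), TAGLN (-3.74, adjusted p = 0.023) and VASN (-2.31, adjusted p = 0.0469), and FTL was lower too (-1.0, adjusted p = 0.0131). Genes higher in SCNT8c were EIF1AX (1.18, adjusted p = 0.022), KDM5A (1.79, adjusted p = 0.0462), CCND2 (2.32, adjusted p = 0.0375) and HK1 (1.49, adjusted p = 0.042). None passed with SCNT8c and SCNT4c fitted alone (adjusted p from 0.198 to 0.268, with VASN too low to test there) or with edgeR (0.0685 to 0.088). Other list members were also called, so that lower calls numbered 4 of 19 structural matrix genes, 1 of 16 matrix enzymes, 4 of 23 contractile and cytoskeletal genes, 2 of 14 receptors and 0 of 22 in each of the lists of secreted signals and mesenchymal transcription factors. Below the SCNT4c mean of the log2 values were 16, 10, 20, 9, 13 and 13 members of these lists, against 11073 of 19412 features. Of 14 oocyte genes tested in that fit, 14 were below it (median difference -1.70, against -0.28 over all features), and none was called.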

How the results depend on the processing

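Of 126 genes given with a fold change or adjusted p as listed, 117 were tested in each of 19 alternatives, and 99 of these kept their call in all of them. The other 9 fell below the minimum mean of 50. Requiring a mean of 50 left 3684 features higher (5260 lower), and with it 41.2% of calls were higher. Donor features were 43.1% lost, 15.7% reduced and 41.2% remaining from a PFF mean of 10, 39.3%, 15.9% and 44.9% with the same total, and 40.8%, 14.2% and 44.9% with quantile normalization. Leaving out single libraries gave 46.7% to 49.2% lost, 15.7% to 16.5% reduced and 35% to 37.3% remaining. With the other group at exactly 0, 265 features were present in PFF only. Of features present in SCNT8c only, the count differing from SCNT4c was 0 higher and 0 lower with both groups alone and with edgeR, 35 and 170 with all 15 libraries, 28 and 53 with a pseudocount of 10, and 12 higher with quantile normalization. Leaving out single libraries gave 0 to 73 higher and 0 to 777 lower. TEAD1 was called lower with library weights (log2 fold change -1.64). Same-numbered libraries did not deviate together (correlations -0.01378, 0.01464 and -0.01733), so the numbers do not pair the libraries. With the replicate block 6118 features were higher and 6752 lower, CXCL12, KDM5A and STAR were no longer called higher and SUZ12 was called higher. Without single libraries the counts were 5553 to 6240 higher and 5617 to 7118 lower. Fold changes of genes near 0 in one group depend on the pseudocount, and with 3 libraries a group, small changes in SCNT8c are not resolved. The cause of these changes was not tested.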
